A study of Mus musculus with 2 samples.

Results

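Fibroblast-like cells with many transcripts of Mmp3, the gene of the secreted protease stromelysin-1, were compared with fibroblast-like cells that had almost none. Called cells entered with 1000 or more genes and no more than 10% mitochondrial UMIs (unique molecular identifiers, each standing for 1 captured transcript). A kept cell was taken as fibroblast-like when it had at least 5 UMIs summed over the matrix genes Col3a1, Col1a1, Col1a2 and Dcn and fewer than 5 summed over the pluripotency genes Pou5f1, Zfp42 and Dppa5a. Of 21593 called cells 16841 were kept, and 366 of these were fibroblast-like. Mmp3-high cells had 10 or more Mmp3 UMIs and numbered 105. Mmp3-low cells had 0 or 1 and numbered 207. The remaining 54 cells, with 2 to 9 UMIs, lay between. These 8 genes chose the cells, so their levels are a description and support nothing.

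The study describes 2 mouse samples of a line labelled Delmix, both without treatment: epiblast stem cells, a primed kind of pluripotent cell, and the embryoid bodies grown from them, collected at day 2. The counts form 1 pooled droplet library read from the 3' end, and its tag names, CMO311 and CMO312, are found in neither label. No cell could be given to either sample, and there are no replicates. Every value is therefore a description of 1 library, with no test, and the 95% intervals given cover counting error only. Neither label names fibroblasts, feeder cells or a tissue for these cells, and their source is not given in the sources used here.

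Matrix metalloproteinases are secreted or membrane-bound enzymes that cut the proteins outside cells. Stromelysin-1 cuts proteoglycans, laminin and fibronectin and activates other members of the family, and tissue inhibitors of metalloproteinases, the TIMPs, bind these enzymes and block them. In connective tissue, fibroblasts are a main source of stromelysin-1, and its gene is known to respond to inflammatory cytokines and to factors of the AP-1 family. Contractile fibroblasts, or myofibroblasts, are known by smooth muscle actin, the product of Acta2.

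In the RefSeq gene order Mmp3 lies on chromosome 9 in a run of family members, with Mmp13, Mmp12 and Mmp1b on one side and Mmp1a, Mmp10, Mmp8, Mmp27 and Mmp20 on the other. The windows from 250 bases before to 50 after the start of Mmp3 and of the 3 neighbours that were higher with it are shown, because each holds the letters TGAGTCA, the core of AP-1 sites, on one of its strands. They are taken from RefSeq on build GRCm38.p6, all on the plus strand, and capitals mark the letters. The Mmp3 window is chr9:7445572-7445871, with the first capital at -46 from the start. That of Mmp10 is chr9:7502092-7502391, with the first capital at -63. That of Mmp13 is chr9:7272264-7272563, with the first capital at -35, where the printed strand reads TGACTCA, the reverse complement. That of Mmp1a is chr9:7463891-7464190, with the first capital at -73.
Mmp3: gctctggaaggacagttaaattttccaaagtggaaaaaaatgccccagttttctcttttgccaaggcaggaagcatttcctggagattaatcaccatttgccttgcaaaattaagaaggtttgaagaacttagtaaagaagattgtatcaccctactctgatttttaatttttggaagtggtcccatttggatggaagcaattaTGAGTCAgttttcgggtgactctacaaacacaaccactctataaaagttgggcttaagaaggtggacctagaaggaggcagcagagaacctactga
Mmp10: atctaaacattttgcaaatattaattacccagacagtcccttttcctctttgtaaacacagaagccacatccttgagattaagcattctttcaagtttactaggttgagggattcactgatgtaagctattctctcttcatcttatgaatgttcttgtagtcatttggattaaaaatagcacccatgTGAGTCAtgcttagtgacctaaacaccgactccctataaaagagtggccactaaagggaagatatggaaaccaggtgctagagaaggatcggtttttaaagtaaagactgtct
Mmp13: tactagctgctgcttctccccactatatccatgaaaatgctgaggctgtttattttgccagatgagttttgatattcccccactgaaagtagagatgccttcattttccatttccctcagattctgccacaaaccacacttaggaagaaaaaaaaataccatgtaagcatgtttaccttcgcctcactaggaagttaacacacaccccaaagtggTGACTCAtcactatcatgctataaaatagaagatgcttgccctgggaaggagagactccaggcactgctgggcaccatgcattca
Mmp1a: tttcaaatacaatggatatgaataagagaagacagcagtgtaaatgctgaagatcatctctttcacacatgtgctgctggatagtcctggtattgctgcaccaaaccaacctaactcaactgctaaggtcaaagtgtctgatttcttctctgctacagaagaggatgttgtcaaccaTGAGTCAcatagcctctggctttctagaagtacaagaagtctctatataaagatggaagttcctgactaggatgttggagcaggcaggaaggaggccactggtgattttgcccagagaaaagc
Of 32817 RefSeq promoter windows of this length 1708 (5.20%) held the letters on either strand. One of the 2 windows listed for Mmp12 held them too, at -44. They were not found in the windows of Crabp1, Igfbp5, Ccl8, Acta2, Timp3, Mest or Myl9. A match is a description of the letters and does not show that a factor binds there.

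Mmp3-high cells had between 10 and 285 Mmp3 UMIs, with a median of 30 and quartiles of 19 and 62. Of the Mmp3-low cells 189 had none and 18 had 1. Just inside and outside the limits, 4 cells had 10 UMIs and 4 had 9, while 18 had 1 and 13 had 2. Summed over cells, Mmp3 stood at 6648 CPM (the usual scaling of a gene's UMIs by the UMIs of all genes in the same cells) against 14.0. In the kept cells that were not fibroblast-like it stood at 17.1 CPM, close to the level of the Mmp3-low cells.

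**Figure D1:**
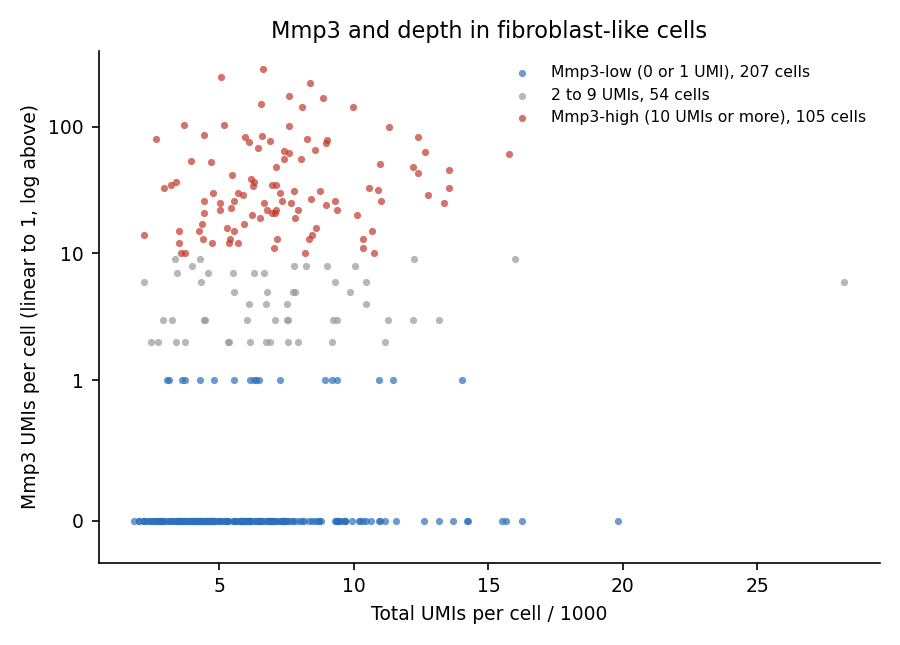
Mmp3 UMIs per cell (vertical axis, linear to 1 and logarithmic above) against all UMIs per cell divided by 1000 (horizontal axis) for the 366 fibroblast-like cells, 1 point a cell, coloured by class. The classes overlap in depth, and Mmp3-high cells spread from 10 to 285 Mmp3 UMIs.

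Both classes carried the broader fibroblast programme. The 20 fibroblast core genes, which include Vim, Sparc and Fn1, summed to 13407 CPM in Mmp3-high and 11514 CPM in Mmp3-low cells against 585.5 CPM in the other kept cells. None of these 20 genes was used in the rule. Vim, an intermediate filament of mesenchymal cells, stood at 1935 and 1843 CPM. Pou5f1, used to leave pluripotent cells out, stood at 33.8 and 31.1 CPM against 559.8 CPM elsewhere. Mmp3-high cells were deeper, with a median of 7059 UMIs (range 2196 to 15766) against 5814 (1830 to 19808). The matrix genes of the rule had a median of 44 UMIs a cell against 24. Called doublets made up 1 of 105 Mmp3-high and 11 of 207 Mmp3-low cells. The cell tag CMO311 had at least 10 times as many UMIs as CMO312 in 98 of 105 Mmp3-high cells (93.3%), in 175 of 207 Mmp3-low cells (84.5%) and in 12.5% of all kept cells. The part of depth, doublets and tags in the differences below was not tested. Values within 4000 to 12000 UMIs, without doublets or within these tag limits are given where they end or turn a result. Apart from Crabp1, genes added after their values were seen were not followed through these settings.

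Genes were called higher or lower where the CPM of the classes, each with 1 added, differed at least 2-fold and the higher reached 20 CPM. Of 7248 genes tested 162 (2.24%) were higher and 381 (5.26%) lower in Mmp3-high cells, around a median log2 ratio of -0.10. Scaling by trimmed means (TMM) changed the split to 209 higher and 286 lower. The verbs below refer to these limits and carry no test.

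**Figure D2:**
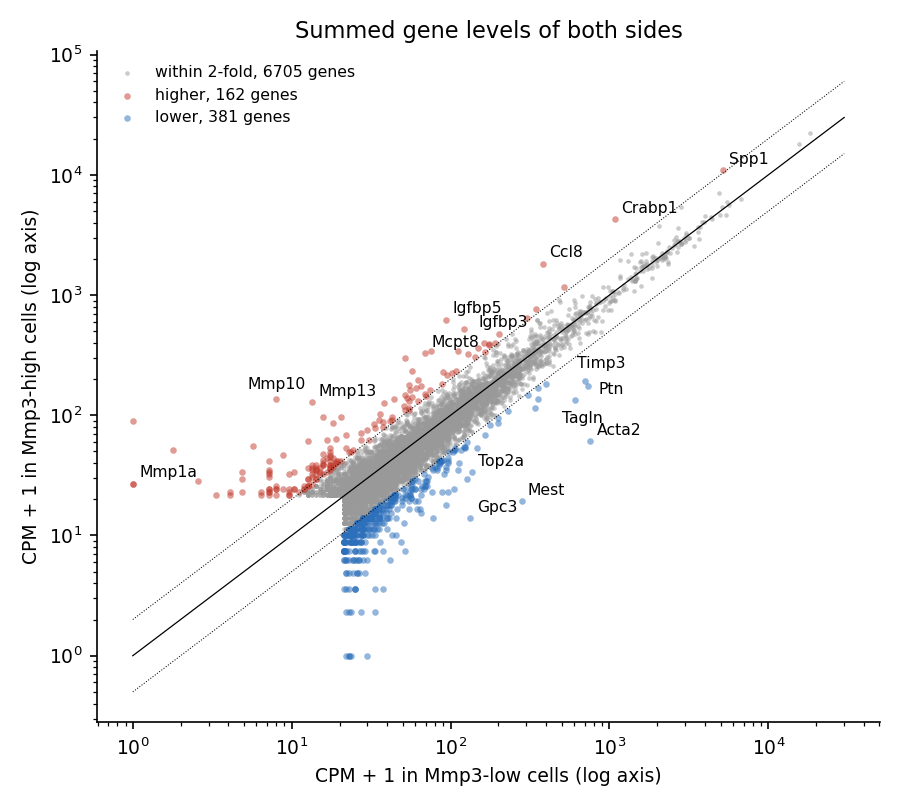
CPM plus 1 in Mmp3-high cells (vertical, log axis) against Mmp3-low cells (horizontal, log axis) for the genes tested, 1 point a gene, with dotted lines at 2-fold. Crabp1 and Ccl8 stand above the line at high level, and Acta2, Tagln, Ptn and Timp3 stand below it.

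Several other metalloproteinase genes were higher in Mmp3-high cells, while the inhibitor gene Timp3 was lower and Timp1 and Timp2 were not called. Leaving out Mmp3, 10 family members were tested, of which 6 were higher and 2 lower, beside 2.24% and 5.26% of all tested genes. Their median log2 ratio was 1.32, beside -0.10 over all genes. The family summed to 1007 CPM (95% interval 937.3 to 1080.5) against 444.4 (408.7 to 482.4), and the log2 ratio of these sums ran from 1.07 to 1.35 over all alternatives.

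Mmp10, which encodes stromelysin-2, stood at 135 CPM (110 to 164) against 7.004 (3.20 to 13.3). It was seen in 16 of 105 cells against 5 of 207, with 40 of its 104 UMIs in 1 cell, and stood at 84.1 CPM without that cell. Mmp10 and Mmp3 are close relatives, and how reads shared by both were counted is not given in the sources used here. Mmp13, the gene of collagenase-3, stood at 127 CPM against 12.5, in 8 and 7 cells. Its log2 ratio of 3.25 turned to -0.52 among the 41 Mmp3-high and 72 Mmp3-low cells with no UMI of the pluripotency genes. Either Mmp10 or Mmp13 was seen in a minority of cells: 22 of 105 Mmp3-high cells had 1 or both and 2 had both, against 11 and 1 of 207 Mmp3-low cells. Mmp1a, an interstitial collagenase gene, had 20 UMIs in 5 Mmp3-high cells and none in Mmp3-low cells. Its 25.99 CPM was 11.1-fold the 2.33 CPM that a count of 0 allows, and the interval of its ratio began at 8.24. Since 12 of the 20 UMIs lay in 1 cell, Mmp1a was under the level limit without that cell. Most Mmp3-high cells thus had no UMI of these 3 neighbours of Mmp3.

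The gelatinase gene Mmp2 was more widely spread, at 365 CPM (324 to 410) against 149 (128 to 171). It had a UMI in 90 of 105 and 103 of 207 cells. After every cell was thinned to 2000 UMIs to equal the depth, the shares were 51.4% and 25.2%, and 5.74% of the other kept cells, not thinned, had a UMI. Mmp19 stood at 67.6 CPM against 21.0, and the gelatinase gene Mmp9 at 39.0 CPM against 14.8, with a log2 ratio of 0.97, just under the limit, where CMO311 was at least 10 times CMO312. Of the members that were not called, Mmp14, a membrane-bound activator of other members, stood at 155 CPM against 114 and Mmp23 at 49.4 CPM against 33.5.

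Mmp16, a membrane-type member, was lower, at 10.4 CPM against 34.2, with a log2 ratio of -0.54 among cells without a pluripotency UMI. Mmp12, the macrophage elastase gene, stood at 2.60 CPM against 36.6, but 36 of its 47 UMIs in Mmp3-low cells came from 1 cell, and the call was lost without it. Timp3, whose product binds to the matrix itself, was lower at 192 CPM (163 to 226) against 700 (655 to 748), in 42 of 105 and 99 of 207 cells. Its log2 ratio of -1.86 ran from -2.32 to -1.70 over all alternatives. Timp1 stood at 643 CPM against 580, with 99 of its 495 UMIs in 1 cell. Its log2 ratio of 0.15 was -0.16 without that cell and -1.04 among cells without a pluripotency UMI. Timp2 stood at 1079 CPM against 1004, with log2 ratios from -0.07 to 0.20 over all alternatives. Adamts5, the gene of an aggrecan-cutting enzyme, was lower at 28.6 CPM against 126, and within 4000 to 12000 UMIs its log2 ratio was -0.89. Of the 17 tested genes of protease inhibitors and the plasminogen system, which hold the Timp genes, only Plau was higher, where 2.24% of all tested genes were. Plau stood at 24.7 CPM against 11.7 and lost the call without its top cell.

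**Figure D3:**
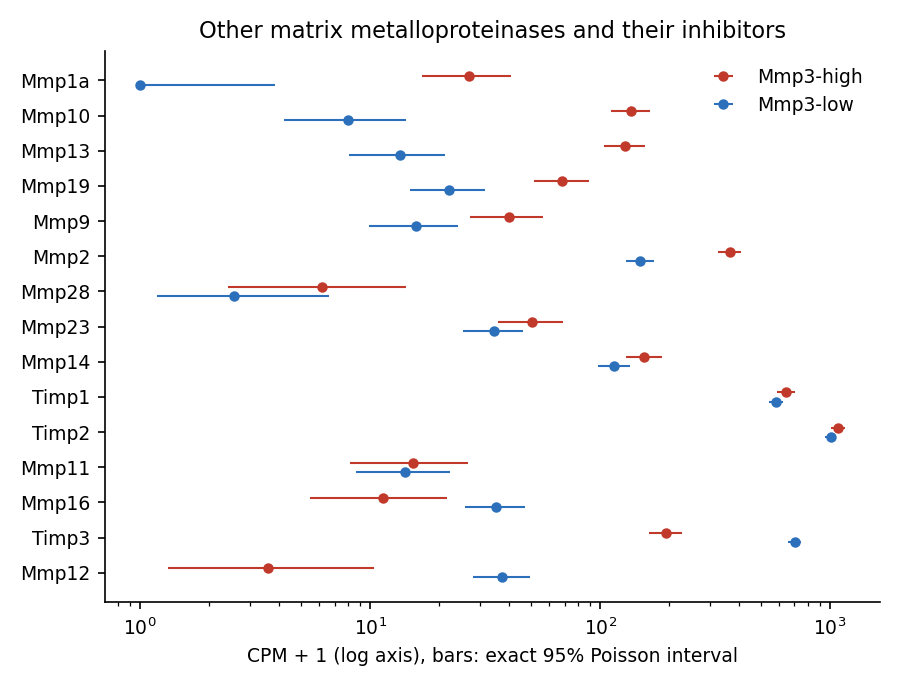
CPM plus 1 (horizontal, log axis) of the other metalloproteinase and Timp genes with at least 5 CPM in either class, points for the classes and bars for exact 95% Poisson intervals. Mmp10, Mmp13 and Mmp2 lie to the right in Mmp3-high cells, Timp3 lies to the left, and Timp1 and Timp2 nearly overlap.

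Crabp1, which encodes a retinoic acid binding protein, was abundant and higher in Mmp3-high cells. It lies outside the rule for named genes and was picked after its values were seen. It stood at 4279 CPM (4134 to 4428) against 1080 (1024 to 1139), a log2 ratio of 1.98. A median of 24 UMIs a cell stood against 1. At 10 UMIs or more it was found in 78 of 105 cells (74.3%) and 44 of 207 (21.3%), so the classes overlapped. At 2000 UMIs a cell, 89.5% (82.0 to 94.7) and 49.0% (42.0 to 56.1) of cells had a UMI, against 10.4% of the other kept cells at their full depth. Its log2 ratio stayed between 1.82 and 2.38 over all alternatives.

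Genes of secreted growth factor binders were split by member. Of 31 tested growth factor and binding protein genes 4 were higher and others lower. Over all tested genes 2.24% were higher and 5.26% lower. Igfbp5, whose product binds insulin-like growth factors, stood at 622 CPM (568 to 681) against 92.6 (76.7 to 111). It was seen in few cells, 26 of 105 and 30 of 207, with up to 115 UMIs in 1 cell. Igfbp3, another binder of these factors, stood at 522 CPM against 121, in 58 of 105 and 51 of 207 cells. By contrast Igfbp2 and Igfbp6 were lower, at 12.99 CPM against 76.3 and at 12.99 CPM against 44.4. Free RNA held Igfbp2 at 471.6 CPM in cell-free droplets, above both classes, and Igfbp6 at 0.512 CPM. The other kept cells had 453.9 CPM of Igfbp2. Ptn, the gene of the heparin-binding factor pleiotrophin, was lower at 174 CPM (146 to 206) against 734 (688 to 782), in 32 of 105 and 102 of 207 cells. Further calls of this list, named after their values were seen, were Wnt5a (394 CPM against 174) and Fgf2 (44.2 against 16.3) higher, and Fst (40.3 against 87.2) lower. Wnt5a, Fgf2 and Fst were not followed through the alternatives.

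Chemokine and acute phase genes were higher in part. Of 15 tested inflammatory genes 3 were higher and none lower, with a median log2 ratio of 0.83. This count and that of the complement genes below are read beside the 2.24% of all tested genes that were higher. Ccl8, which encodes a chemokine that attracts monocytes, stood at 1824 CPM (1730 to 1922) against 381 (348 to 416). It was seen in 77 of 105 and 51 of 207 cells, and in 55.2% and 18.0% of cells at 2000 UMIs, against 1.01% of the other kept cells. Cxcl5, a gene of a neutrophil attractant, stood at 339 CPM against 73.9. Ccl12, another monocyte attractant gene, stood at 85.8 CPM against 17.1 in 14 and 6 cells, and was among the 15 largest ratios. Saa3, an acute phase gene, stood at 226 CPM against 88.7, but 112 of its 174 UMIs came from 1 cell, and its log2 ratio turned to -0.12 without it. The most abundant chemokine genes, Ccl2 and Ccl7, stayed under 2-fold, at 3728 CPM against 2045 and at 2201 CPM against 1357. Il6 had 3 and 10 UMIs, and Csf2, Csf3 and Ccl20 had none in either class, which allows up to 3.90 and 2.33 CPM. Of 5 complement and acute phase genes tested, Serpina3g, a serine protease inhibitor gene, was higher at 196 CPM against 61.5, and C1ra was higher at 20.8 CPM against 2.34, the latter only with its top cell. None of 11 NF-kappaB response genes and none of 17 interferon response genes were called, with medians of 0.02 and 0.30.

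Of 22 tested collagen and crosslinking genes 2 were higher and 1 lower, beside 2.24% and 5.26% of all tested genes. Col6a3 was higher, at 641 CPM against 301, as was Loxl3, the gene of a crosslinking oxidase, at 142 CPM against 56.0. Within 4000 to 12000 UMIs neither was called, at log2 ratios of 0.79 and 0.91. Col11a1 was lower at 19.5 CPM against 43.6 and lost its call without its top cell. In the fibroblast core list, Fbln1, the gene of the matrix glycoprotein fibulin-1, was the only one called of 19 tested, at 322 CPM against 128. Spp1, which encodes the secreted matrix protein osteopontin, reached 11015 CPM against 5150, with a median of 44 UMIs a cell against 2. No Spp1 UMI was found in 7 of 105 and 83 of 207 cells, and at least 50 were found in 48 and 32 cells. Its log2 ratio of 1.10 lay close to the limit: it was 0.99 without the cell with 677 UMIs and 0.80 without dividing cells (those with at least 5 UMIs of the G2/M genes below).

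Further genes among the 15 largest ratios were Cyp7b1, the gene of an oxysterol hydroxylase, at 299 CPM against 50.6, and Mcpt8, of the mast cell protease family, at 326 CPM against 68.5. UMIs of both Cxcl5 and Mcpt8 were found in 21 of 105 and 6 of 207 cells. Gpm6b, a membrane glycoprotein gene, stood at 233 CPM against 56.0 and in 34.3% against 11.7% of cells at 2000 UMIs. Itga1, the gene of a collagen receptor subunit, stood at 96.2 CPM against 19.5, and the cadherin gene Cdh6 at 59.8 against 11.7. Mamdc2 stood at 54.6 CPM against 4.67. Penk, the gene of the enkephalin precursor, stood at 96.2 CPM against 14.8 with 50 of its 74 UMIs in 1 cell, without which its log2 ratio was 1.05 instead of 2.62. It was 0.65, and not called, among cells without a pluripotency UMI, and the intermediate cells stood at 144.6 CPM. Zfp804a, at 50.7 CPM against 0.778, had 29 of its 39 UMIs in 1 cell and lost the call without it.

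Across 5 ranges of Mmp3 count, 0, 1, 2 to 9, 10 to 29 and 30 or more, Crabp1 stood at 976, 2048, 2571, 3476 and 4963 CPM, an ascending order. Ccl8 also ascended, at 351, 659, 1309, 1686 and 1942 CPM. Igfbp3 did not: it stood at 119, 137, 82.3, 206 and 792 CPM, and was high only in the top range. Cyp7b1 had a similar course, at 47.4, 80.3, 72.3, 127 and 445 CPM. Ptn descended, at 767, 426, 394, 217 and 137 CPM. Acta2 stood at 713 and 1156 CPM in cells with 0 and 1 Mmp3 UMI and at 64.8, 22.6 and 91.5 CPM in the ranges above. At 0 Mmp3 UMIs 1 cell held 217 of 827 Acta2 UMIs, and at 1 Mmp3 UMI 1 cell held 47 of 144. The intermediate cells, in neither class, thus stood near the Mmp3-high cells in Acta2 and between the classes in Crabp1 and Ptn. The ranges hold 189, 18, 54, 51 and 54 cells, and the Mmp3 count itself depends on depth. All ranges but that of 2 to 9 lie within the classes, and these genes were picked for differing between the classes. Their order over the ranges is therefore a description and no separate support.

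**Figure D4:**
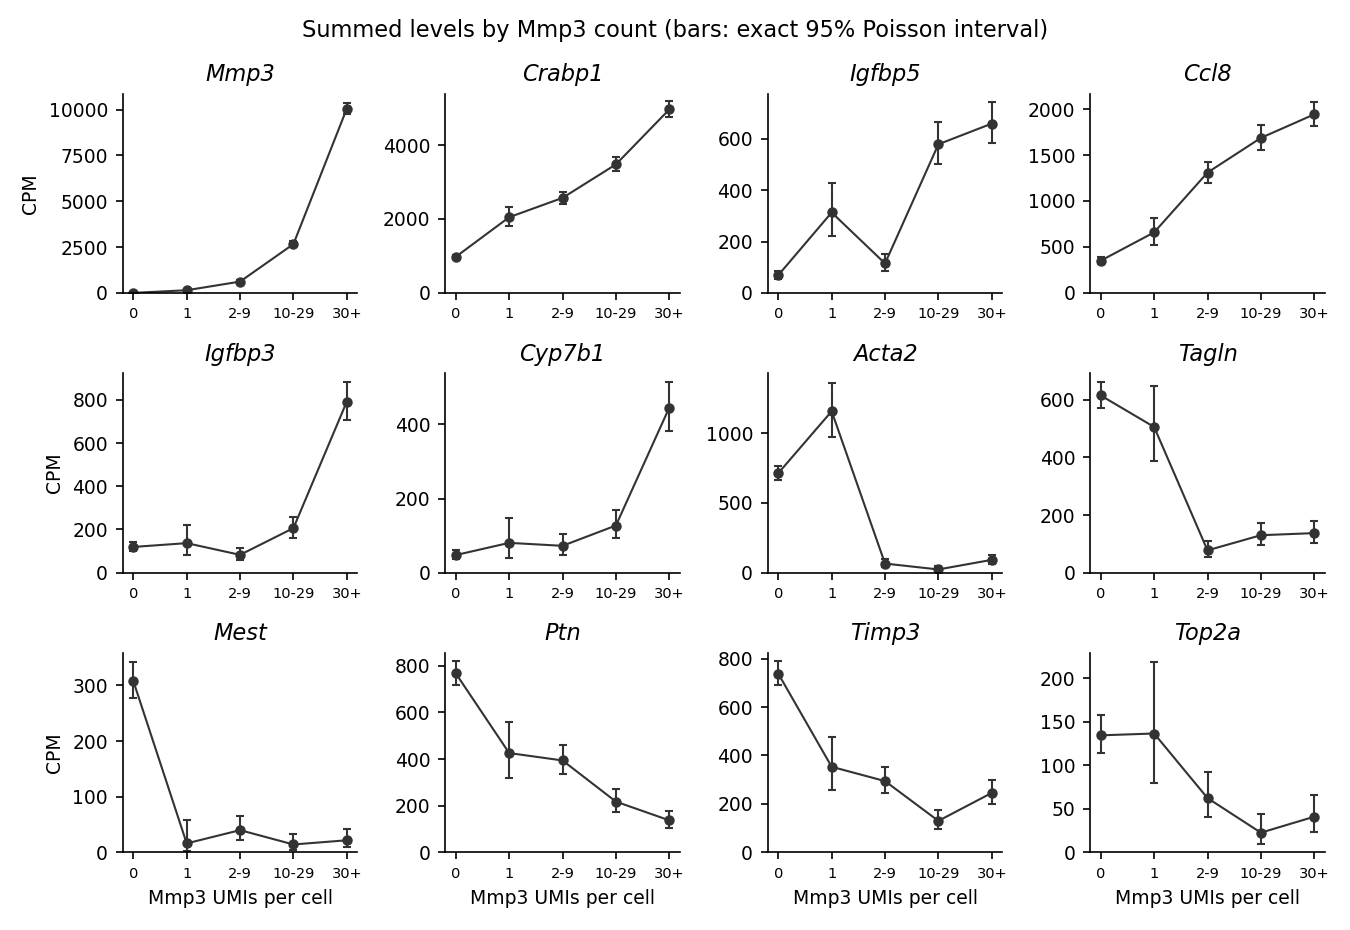
CPM (vertical axes from 0) of 12 genes in fibroblast-like cells grouped by Mmp3 UMIs per cell (horizontal axes), with exact 95% Poisson intervals. Crabp1 and Ccl8 ascend over the ranges, while Acta2 and Tagln are high only at 0 or 1 Mmp3 UMI and Mest only at 0.

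The contractile genes Acta2, Tagln and Myl9 were lower in Mmp3-high cells. Of 14 tested TGF-beta and contractile genes 3 were lower and 1 higher, beside 5.26% and 2.24% of all tested genes. The list summed to 2413 CPM against 3977. Acta2 stood at 59.8 CPM (43.8 to 79.7) against 756 (709 to 805), in 9 of 105 and 69 of 207 cells. Its highest cell held 217 of 971 UMIs, and its log2 ratio of -3.64 ran from -6.06 to -3.0 over all alternatives. Tagln, which encodes the actin-binding protein transgelin, stood at 134 CPM (109 to 162) against 605 (563 to 649), in 22 and 87 cells. Myl9, a myosin light chain gene, stood at 24.7 CPM against 67.7. The tropomyosin gene Tpm1, at 490 CPM against 816, was not called. Cells with at least 5 UMIs of both Acta2 and Tagln numbered 3 of 105 (2.86%) and 29 of 207 (14.0%), so this programme lay in a minority of Mmp3-low cells. Tgfbi, a matrix gene induced by TGF-beta, was higher at 52.0 CPM against 21.0, a call lost without cells that carry transcripts of other cell types.

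Mest and Gpc3 were among the 15 largest ratios in the lower direction as well. Mest, an imprinted gene expressed in embryonic mesoderm, stood at 18.2 CPM (9.95 to 30.5) against 279 (251 to 310), in 8 of 105 and 52 of 207 cells, with a log2 ratio of -3.87 (-4.69 to -3.23 over all alternatives). Gpc3, which encodes a glypican that limits growth, stood at 12.99 CPM against 132, in 7 and 52 cells. In the Mmp3-low class 28 cells had UMIs of both, and 8 had Mest with at least 5 UMIs of Acta2. Free RNA held both genes: cell-free droplets had 142.8 CPM of Mest and 186.4 CPM of Gpc3, the other kept cells had 131.5 and 169.1 CPM, and 46.8% and 53.2% of the latter had a UMI. A cell with a UMI of either gene is therefore not read as a cell that expresses it. With the cell-free profile taken off, the log2 ratios were -4.21 for Mest and -3.92 for Gpc3. CMO312 was at or above CMO311 in 16 Mmp3-low cells, 10 of which had a Mest UMI, and in 1 Mmp3-high cell. Among cells with at least 10 times as many CMO311 as CMO312 UMIs the log2 ratio was -3.24 for Mest and -2.23 for Gpc3. The microfibril gene Fbn2 (22.1 CPM against 94.95), Heg1 (15.6 against 63.0), Peg10 (22.1 against 87.2) and Bex2 (16.9 against 92.6) were also among the 15 largest ratios in this direction. Cell-free droplets had 342.8 CPM of Peg10 and 363.1 CPM of Bex2, above both classes. Within those tag limits the log2 ratio of Peg10 was -0.26.

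Genes of the cell cycle were lower in Mmp3-high cells. Of 17 tested G2/M genes 15 were lower and none higher, with a median log2 ratio of -1.81, and of 16 S phase genes 9 were lower. Over all tested genes 5.26% were lower. The G2/M genes summed to 404 CPM (360 to 452) against 1220 (1161 to 1282), far under the 5199 CPM of the other kept cells. Top2a, the gene of the enzyme that untangles DNA, stood at 32.5 CPM against 135, in 14 of 105 and 61 of 207 cells, and at 421 CPM in cell-free droplets. Ube2c, which acts at mitotic exit, stood at 23.4 CPM against 104, the spindle gene Prc1 at 6.497 against 50.6 and the actin regulator gene Diaph3 at 14.3 against 63.8. In cell-free droplets Ube2c, Prc1 and Diaph3 stood at 375.0, 121.1 and 116.6 CPM, above both classes. Without dividing cells Ube2c and Prc1 were not called, at -0.73 and -0.45. Dividing cells were set by UMIs of the G2/M genes, of which Ube2c is one. Its lost call follows in part from that limit and is no separate result. Kif11, a spindle motor gene, had 0 and 28 UMIs. Its 21.79 CPM in Mmp3-low cells was 5.59-fold the 3.90 CPM that a count of 0 allows in Mmp3-high cells. The interval of its ratio of Mmp3-high to Mmp3-low ended at 0.235. Kif11 was called lower, a call lost without its top cell, and stood at 92.1 CPM in cell-free droplets. At least 5 G2/M UMIs were found in 10 of 105 (9.52%) and 47 of 207 (22.7%) cells, against 97.2% of the other kept cells, and 26 of these 47 had a Mest UMI. The calls were fewer in part of the cells: 6 of the G2/M genes and 2 of the S phase genes were lower where CMO311 was at least 10 times CMO312. The summed G2/M log2 ratio was then -1.04 instead of -1.59. Without cells of at least 5 G2/M UMIs Acta2, Mest, Ptn and Timp3 kept their calls. Cdkn1a, a cell cycle inhibitor gene, stood at 1088 CPM against 1043. Of 19 tested p53 and senescence genes only Gdf15 was called, lower at 16.9 CPM against 48.3. That count lies near the 5.26% of all tested genes that were lower. Cdkn2a, another inhibitor gene, stood at 586 CPM against 365.

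No AP-1 gene was called higher in Mmp3-high cells. Of 11 tested immediate early genes 1 was lower, Fos at 19.5 CPM against 55.3, and none were higher. The lower calls of this paragraph are read beside the 5.26% of all tested genes that were lower. When the classes were set on Mmp3 after thinning, Fos was at -0.80 and not called. Jun stood at 129 CPM against 141, Junb at 275.5 against 268.5, and Fosl1 at 31.2 against 51.4. Of 14 tested oxidative stress genes Slc7a11 (12.99 CPM against 34.2) and Gclc (27.3 against 68.5), both needed for glutathione, were lower, and neither was called among cells with at least 10 matrix UMIs. No gene was called among 15 lysosomal, 16 glycolysis and hypoxia, 22 ribosomal protein, 13 mitochondrially encoded and 7 nuclear-retained noncoding genes tested. Of 9 tested positional genes Emx2 and Osr2 were higher and Msx2 lower, all 3 lost without their top cell. Some lineage genes of mesenchyme were called, each read beside the 2.24% of all genes that were higher. Of 5 osteogenic genes Spp1 and Ank (216 CPM against 94.2), of 7 adipogenic genes Apod (398 against 161) and Fabp4 (118 against 49.8) were higher. Ank and Apod lost the call without dividing cells, and Fabp4 turned to -1.95 among cells without a pluripotency UMI. Of 2 chondrogenic genes Sox9 was lower, at 9.10 CPM against 32.7. The defining genes Sp7, Bglap, Acan, Comp and Adipoq had no UMI in either class.

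**Figure D5:**
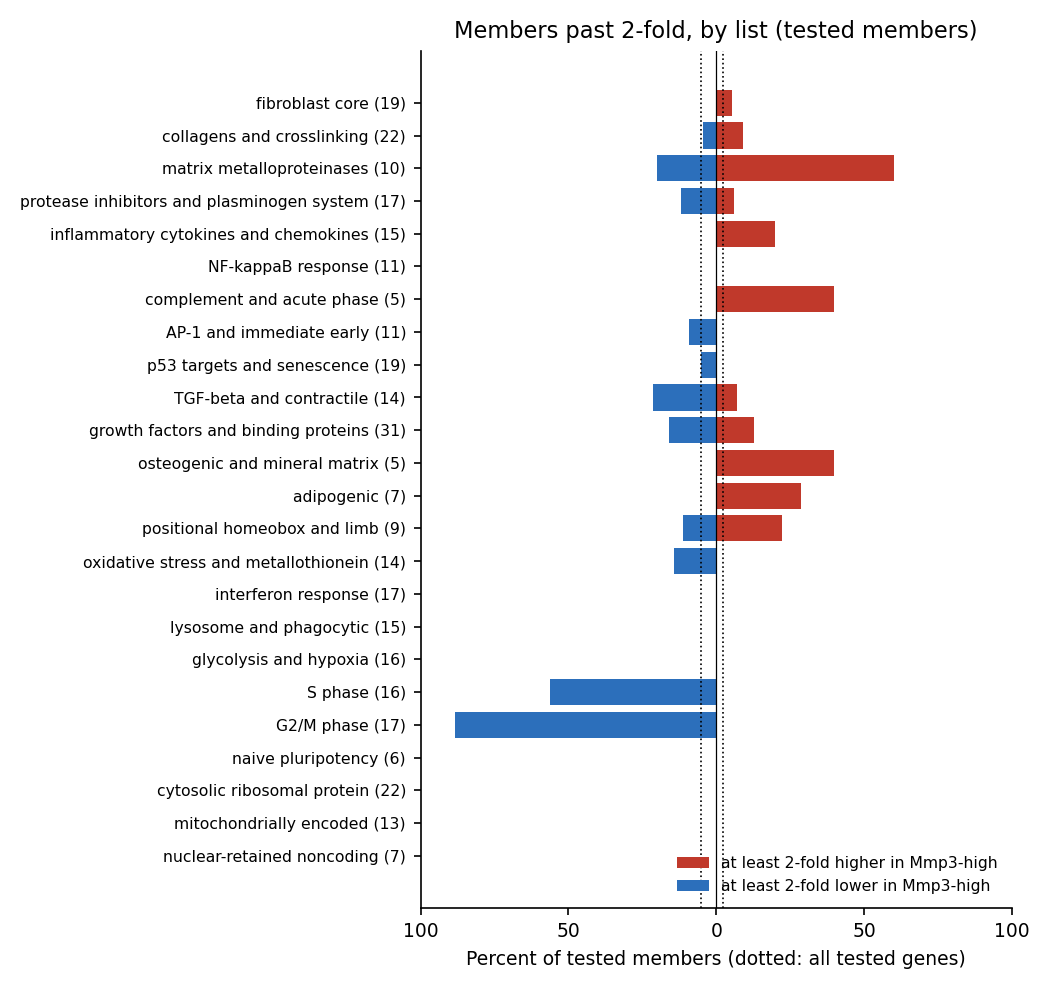
Percent of tested members (horizontal axis, count tested in brackets) at least 2-fold higher (right) or lower (left) in Mmp3-high cells for lists with at least 5 tested members, with dotted lines at 2.24% and 5.26% for all genes. G2/M and S phase genes stand out to the left and metalloproteinases to the right.

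Few markers of other cell types were tested in either class, and those called were lower in Mmp3-high cells in the epithelial, neural and streak lists and higher in the Schwann list. The 15 macrophage genes had 9 and 23 UMIs in all, with C1qc, Adgre1 and Tyrobp at 0 in both classes. The 12 endothelial genes summed to 54.6 CPM against 63.0, of which Flt1 made up 36 of 42 and 53 of 81 UMIs. Epithelial genes summed to 27.3 CPM against 89.5, with Krt8 lower at 5.197 CPM against 28.8 and Krt5 and Krt14 at 0. Where CMO311 was at least 10 times CMO312, the log2 ratio of Krt8 was 0.03. Neural genes summed to 85.8 CPM against 223, with Tubb3 (1.30 against 26.5), Stmn2 (39.0 against 111) and Nes (11.7 against 31.1) lower of 4 tested. Over all tested genes 5.26% were lower. Nes lost the call without dividing cells. Streak and mesoderm genes summed to 81.9 CPM against 154. Hand1 had 0 and 28 UMIs, the latter in 6 cells, and had none in either class where CMO311 was at least 10 times CMO312. Hand2 stood at 6.497 CPM against 31.9. Mesothelial genes had 1 and 39 UMIs, 23 of them in 1 Mmp3-low cell. Pericyte genes summed to 40.3 CPM against 67.7 with no call of 1 tested, and skeletal muscle genes had 1 and 8 UMIs. Ednrb, an endothelin receptor gene of the Schwann and neural crest list, was higher at 29.9 CPM against 6.23, with Sox10 at 0. Naive pluripotency genes summed to 355 CPM against 422 and primed epiblast genes to 200.1 against 202, with no call. At least 5 UMIs of the macrophage, endothelial, epithelial, streak, neural and Schwann lists together were found in 14 of 105 and 42 of 207 cells. Without these cells Msx2 and Krt8 turned, to log2 values of 1.06 and 0.39, and Mmp10, Crabp1, Acta2, Mest and Timp3 kept their calls. Krt8 belongs to the epithelial list that helped set this limit, so its turn follows in part from the limit itself.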

How the data were processed

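The authors deposited unscaled UMI counts for each gene and barcode and, for each called cell, a tag assignment probability as a fraction. The file headers name Cell Ranger 8.0.1, the submitters' processing notes also list Seurat, and the genome build is not given in the sources used here. UMIs were summed over the cells of each class (769609 and 1284931 UMIs) and scaled to CPM with exact Poisson intervals; a pseudocount of 1 CPM entered each ratio. Genes were tested where either class reached 20 CPM, the 8 genes of the rule left out. Shares of cells given at 2000 UMIs were taken after thinning, which left out 1 Mmp3-low cell. All other shares and counts of cells were taken at full depth, without equal depth between the classes. Intervals of shares are exact binomial intervals. Where a symbol stood for 2 identifiers the first was used. Doublets (Scrublet, scanpy 1.11.5, expected rate 0.1) and free RNA were left in. TMM factors came from edgeR 4.0.16. The calculations were tested on simulated data. Named were the 15 largest ratios in each direction (at least 50 CPM, no provisional names), up to 5 members of each of 35 lists, all Mmp and Timp genes and the genes of the rule; Crabp1, Wnt5a, Fgf2, Fst and other members beside counts were added after their values were seen. Some genes of the lists, and a count that needs one, are not reported here. The members, the lists and the rule were chosen with earlier results of these data known. There were 15 planned and 4 later alternatives: classes set after thinning or at 20 against 0 Mmp3 UMIs, limits on depth, doublets, pluripotency and matrix UMIs, strict and lenient cell filters, means per cell, the cell-free profile taken off, another total, TMM, another pseudocount and level minimum, and the cells left out that the closing section names.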

Additional observations from a re-analysis of the deposited data

Results flagged for a closer look

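The cell tags were not used to set the classes. Genes were compared within tag limits only in an alternative added after seeing the data. The median count of CMO311, though not of CMO312, stood above the level of droplets without a cell. It was 1651 CMO311 UMIs in Mmp3-high cells and 2163 in Mmp3-low cells, while cell-free droplets had a median of 830 and a 90th percentile of 1228. The first quartiles of the classes, 833 and 967, lay below that percentile. CMO312 had medians of 33 and 72 in these classes, below its median of 340 in cell-free droplets and of 400 in all kept cells. By the authors' deposited tag calls, 103 of 105 Mmp3-high and 199 of 207 Mmp3-low cells were unassigned. The tag names match no sample label, so the origin of these cells is not read from them.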

How the results depend on the processing

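The 162 higher and 381 lower genes became 431 and 834 among the cells with no UMI of the pluripotency genes (41 against 72 cells). They became 74 and 96 at a minimum of 50 CPM and 1629 and 2481 with no minimum, and lower genes 252 with a pseudocount of 5 CPM. Both counts stayed within 1.5 times under the remaining settings. In the cells with no pluripotency UMI the log2 ratio turned to -0.52 for Mmp13, -1.63 for Saa3, -1.95 for Fabp4, -0.23 for Emx2 and 0.32 for Krt8. It turned to -0.12 for Saa3 without its top cell, to 1.06 for Msx2 and 0.39 for Krt8 without cells carrying other cell types' transcripts, and to -0.27 for Saa3 and 0.03 for Krt8 where CMO311 was at least 10 times CMO312. Krt8 is itself among the genes by which cells with other cell types' transcripts were left out. The cause of these turns was not tested. Of 77 named genes called, 71 did not turn under any alternative run, counting Hand1, which had no UMI in either class within those tag limits, and 15 lost the call without the cell with most of their UMIs. The alternatives on other cell types' transcripts, dividing cells, single cells and tags were added after seeing the data. No paired analysis was possible because the pooled library has no replicates. Depth limits rare genes, and genes seen in few cells rest on those cells. A count of 0, taken to allow 3 UMIs, allows 3.90 CPM in Mmp3-high and 2.33 CPM in Mmp3-low cells. The exact Poisson intervals of a count of 0 end higher, at 4.79 and 2.87 CPM.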

Other observations

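Imprinted genes, which are expressed from 1 parental copy and many of which act in embryonic growth, were listed after Mest and Peg10 had been seen to be lower, so these values are a description. Of 16 tested genes of this list 8 were lower and none higher in Mmp3-high cells, where 5.26% of all tested genes were lower. The 8 include Mest and Peg10, which prompted the list, so part of this count was known in advance. Where CMO311 was at least 10 times CMO312, the log2 ratio of Peg10 was -0.26. The members other than Mest and Peg10 were not followed through the alternatives. Peg3 stood at 113 CPM (90.5 to 139) against 341 (310 to 374), in 38 of 105 and 75 of 207 cells. Plagl1, the gene of a zinc finger factor, stood at 7.80 CPM against 47.5, Usp29 at 1.30 against 21.8 and Sgce at 33.8 against 76.3. H19, at 441 CPM against 509, Grb10, at 130 against 180, and Igf2r, at 313 against 237, stayed within 2-fold. Other kept cells had 131.5 CPM of Mest, 167.1 of Peg3 and 18.7 of H19.

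Transcripts of Xist, the RNA of the inactive X chromosome in female cells, and of Y-linked genes were found in both classes, mostly in different cells. Xist UMIs without a UMI of the Y-linked genes Ddx3y, Uty, Eif2s3y or Kdm5d were found in 42 of 105 Mmp3-high cells (40.0%) and 73 of 207 Mmp3-low cells (35.3%). The reverse, a Y-linked UMI without Xist, was found in 49 (46.7%) and 58 (28.0%) cells, against 1.97% of 16475 other kept cells. Both kinds of transcript were found in 2 and 4 cells, and neither in 12 (11.4%) and 72 (34.8%). Of the other kept cells 28.9% had Xist without a Y-linked UMI and 68.2% had neither, so Xist was not particular to the fibroblast-like cells. These shares were not thinned to equal depth, and the genes were chosen after earlier values had been seen.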
